A study of Sus scrofa with 18 samples.

Results

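Genes that mark urothelium, the lining epithelium of the urinary tract, were followed through the RNA-seq libraries of pig adipose tissue. They were *UPK1A*, *UPK1B*, *UPK2*, *UPK3A*, *GATA3*, *CDH1*, *ELF3*, *GRHL2* and *TP63*. These 9 of the 29884 genes in the count table were chosen by symbol because 2 visceral fat libraries of 3 months, VAF3-1 and VAF3-2, stood far above the other 16 libraries in earlier results of the same counts. The levels in these 2 libraries are therefore a description and carry no test. The libraries came from 9 male Bama pigs, a miniature breed, all by one sire and fasted before slaughter, with 3 pigs at each of 1, 3 and 6 months. Subcutaneous fat (SAF) was taken from the back beside the last ribs and visceral fat (VAF) from the deposit next to the kidney, with 3 libraries for each depot and age (SAF1, SAF3, SAF6, VAF1, VAF3 and VAF6). Whole pieces of tissue were used, with no sorting of cells, and no pig carried a transgene or received a treatment that differed between groups. In such bulk samples, fewer cells of a type and less RNA per cell cannot be told apart.

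Library names follow the columns of the counts, and for 4 of the VAF libraries of 3 and 6 months (VAF3-3, VAF6-1, VAF6-2 and VAF6-3) the sample titles and ages disagree with these names. VAF3-1 and VAF3-2 carry the same name and age throughout. Total counts per library ranged from 16404239 to 22857354, so that 3 counts correspond to between 0.115 and 0.187 CPM (counts scaled to 1000000 per library, with TMM-adjusted library sizes), and values below that level rest on 3 counts or fewer.

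Urothelium is a layered epithelium with basal cells on a basement membrane, intermediate cells above them and umbrella cells facing the urine. Umbrella cells cover their surface with plaques of uroplakins, in which UPK1A pairs with UPK2 and UPK1B pairs with UPK3A. The other 5 genes are of wider use in epithelia: CDH1 (E-cadherin) joins neighbouring cells, TP63 maintains basal cells, and GATA3, ELF3 and GRHL2 are transcription factors of epithelial differentiation. GATA3 is also the factor of T helper cells, and none of the 5 marks urothelium alone.

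The 9 genes lie on 6 pig chromosomes of Sscrofa11.1, and 8 of the 9 overlap no other annotated gene. *UPK1A* is at chr6:45105118-45113631, *UPK1B* at chr13:141013953-141026368, *UPK2* at chr9:46200465-46202754 and *UPK3A* at chr5:4109985-4122272. *CDH1* is at chr6:18075487-18155986, *GATA3* at chr10:63367684-63397977, *ELF3* at chr10:24237852-24242266 and *TP63* at chr13:127115990-127347082. *GRHL2*, at chr4:35368788-35565394, overlaps *NCALD* and LOC110260426 on the other strand, and without a stated strand setting of the counting their reads cannot be told apart where exons overlap. The 250 bases before the gene start are shown for *CDH1* and *ELF3*, as windows with motif matches next to genes of the pattern, from the RefSeq annotation and the Sscrofa11.1 sequence, 5′ to 3′ on the strand of the gene, with matched letters in capitals. They are chr6:18155987-18156236 (minus strand) for *CDH1* and chr10:24237602-24237851 (plus strand) for *ELF3*.
CDH1: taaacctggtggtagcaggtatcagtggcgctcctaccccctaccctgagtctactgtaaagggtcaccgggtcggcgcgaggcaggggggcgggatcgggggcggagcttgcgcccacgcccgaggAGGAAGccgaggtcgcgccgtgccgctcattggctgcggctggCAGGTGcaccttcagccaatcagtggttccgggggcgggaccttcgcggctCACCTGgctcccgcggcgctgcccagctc
ELF3: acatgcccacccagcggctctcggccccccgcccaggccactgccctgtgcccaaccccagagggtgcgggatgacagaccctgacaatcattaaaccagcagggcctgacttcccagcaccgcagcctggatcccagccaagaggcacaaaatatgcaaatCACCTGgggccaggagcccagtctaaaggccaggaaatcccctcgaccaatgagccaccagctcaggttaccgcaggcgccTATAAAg
The motifs searched on both strands were AGATAA for GATA factors, AACNGGTT for GRHL factors, AGGAAG for ETS factors such as ELF3, the E-box CACCTG and the TATA box TATAAA, all chosen after the values were seen. In the *CDH1* window an ETS match lay 123 bases before the start and E-boxes 80 and 29 bases before it. In the *ELF3* window an E-box lay 88 bases and a TATA box 7 bases before the start. Among the 9 genes the E-box was found in 4, the ETS letters in 2, the TATA box in 1 and the GATA and GRHL letters in 0. Over the windows of 19528 genes these shares were 19.56%, 24.96%, 9.76%, 8.08% and 1.39% in the same order. A match says only that the letters are there.

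All 4 uroplakins were far higher in VAF3-1 and VAF3-2 than in every other library, where *UPK1A* and *UPK2* stayed below 0.3 CPM, *UPK3A* reached 1.12 CPM and *UPK1B* 3.77 CPM. *UPK2* was at 444 CPM in VAF3-1 and 177 CPM in VAF3-2, against 0.04 CPM in VAF3-3. Over the other 16 libraries its median was 0 CPM and its highest value 0.29 CPM, in VAF6-1. *UPK1A*, its partner in the plaque, was at 341 CPM in VAF3-1 and 108 CPM in VAF3-2, against 0.13 CPM in VAF3-3. Its median over the other 16 libraries was 0.05 CPM and its highest value 0.29 CPM, again in VAF6-1. In the raw data these levels were 8472 and 3532 counts for *UPK2*, and 6514 and 2152 counts for *UPK1A*.

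*UPK3A* was at 345 CPM in VAF3-1, 210 CPM in VAF3-2 and 0.25 CPM in VAF3-3. In SAF it had a low level throughout, from 0 to 1.12 CPM with a median of 0.55 CPM, and in the 7 VAF libraries other than VAF3-1 and VAF3-2 it lay between 0.24 and 1.07 CPM with a median of 0.62 CPM. *UPK1B* was at 276 CPM in VAF3-1 and 35.4 CPM in VAF3-2, and it was the uroplakin with the highest values elsewhere. It was at 3.01 CPM in VAF3-3 and 3.77 CPM in VAF6-1, at 0.29, 0.35 and 1.07 CPM in VAF1-1, VAF1-2 and VAF1-3, and at 0.37 and 0.23 CPM in VAF6-2 and VAF6-3. The 9 SAF libraries had 0.05 to 0.28 CPM of *UPK1B* (median 0.06), which overlaps the lowest VAF libraries.

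**Figure D1:**
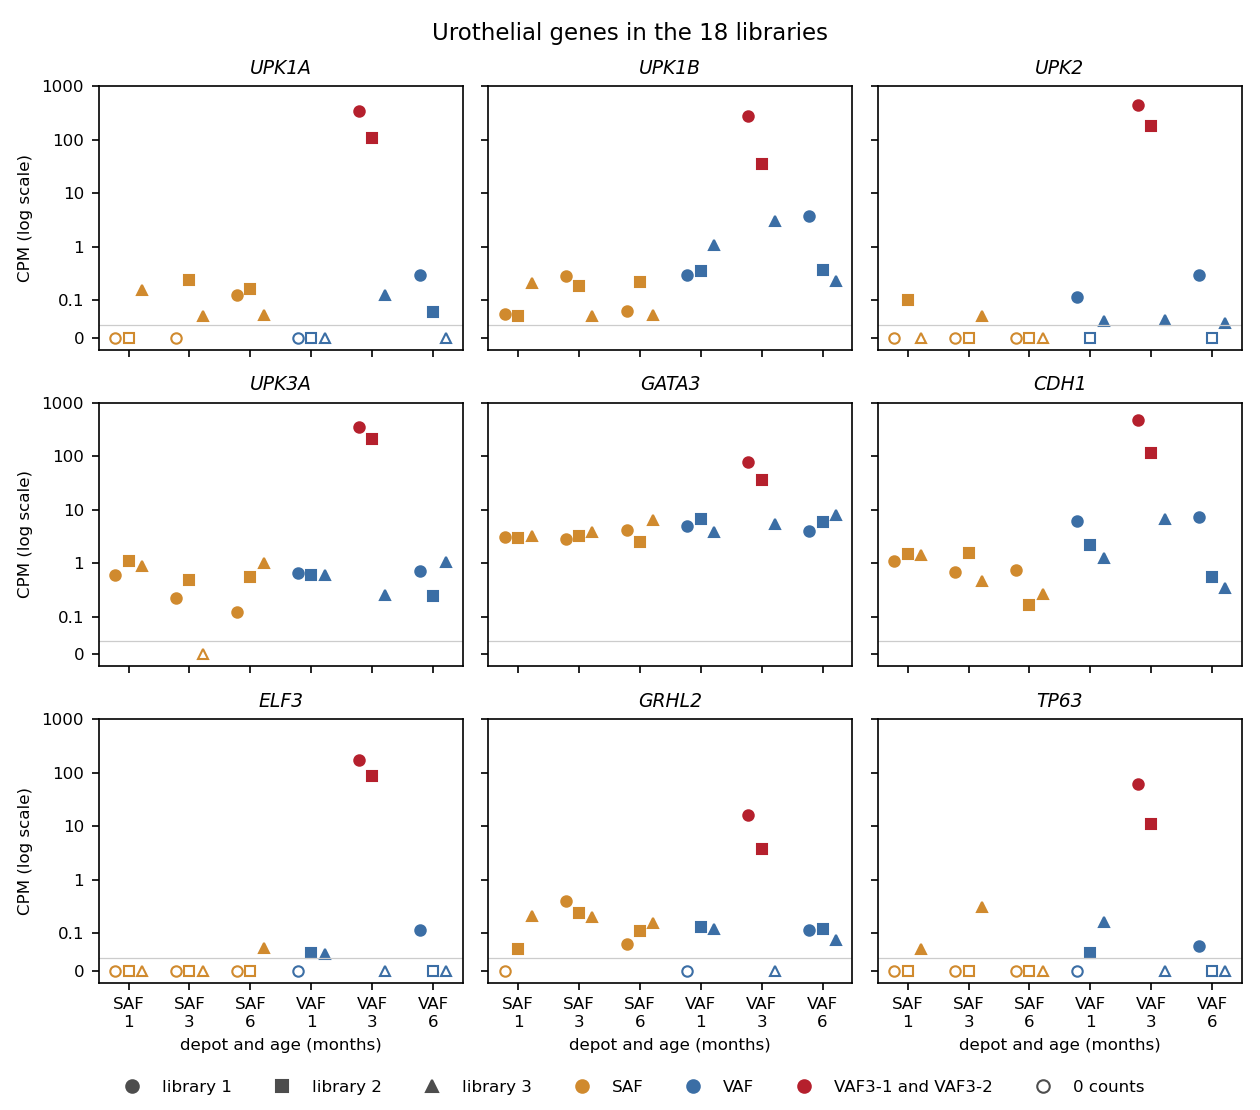
CPM (log scale, with 0 counts drawn as open symbols below the grey line) of the 9 urothelial genes in the 18 libraries, by depot and age in months; each symbol is 1 library and red marks VAF3-1 and VAF3-2. For every gene the red symbols are the highest, and for UPK1B and CDH1 the VAF3-3 and VAF6-1 symbols stand next, at 3.01 to 7.30 CPM.

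*CDH1*, the E-cadherin gene, was the highest of the 9 by CPM in VAF3-1, at 467 CPM, and reached 114 CPM in VAF3-2. The next libraries were VAF6-1 at 7.30 CPM, VAF3-3 at 6.75 CPM and VAF1-1 at 6.07 CPM. The remaining VAF libraries had 2.21 (VAF1-2), 1.24 (VAF1-3), 0.55 (VAF6-2) and 0.35 CPM (VAF6-3), and the SAF libraries 0.17 to 1.58 CPM with a median of 0.75 CPM. VAF3-1 and VAF3-2 thus lay above all others, and the range of the remaining VAF libraries overlapped that of SAF.

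Among the transcription factors, *ELF3* had the largest distance from the other libraries. It was at 172 CPM in VAF3-1 and 87.6 CPM in VAF3-2, and at 0 counts in VAF3-3, while the highest of the other 16 libraries was VAF6-1 at 0.12 CPM. *TP63*, the basal cell factor, was at 61.9 CPM in VAF3-1 and 11.15 CPM in VAF3-2, with 0 counts in VAF3-3 and at most 0.31 CPM in another library, SAF3-3. *GRHL2* was the least abundant of the 9, at 16.4 CPM in VAF3-1 and 3.75 CPM in VAF3-2, with 0 counts in VAF3-3 and at most 0.40 CPM elsewhere, in SAF3-1. *GATA3* had the highest level outside these 2 libraries in most samples, and was never below 2.54 CPM. It was at 79.1 CPM in VAF3-1, 36.3 CPM in VAF3-2 and 5.39 CPM in VAF3-3, between 2.54 and 6.48 CPM (median 3.23) in SAF and between 3.83 and 7.94 CPM (median 5.39) in the other 7 VAF libraries.

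Summed over the 9 genes, VAF3-1 held 2203 CPM and VAF3-2 held 783 CPM, against 3.75 to 16.7 CPM (median 6.64) in the other 16 libraries. These are 0.245% and 0.0857% of all counts in the 2 libraries. The 3 libraries next in order were VAF6-1 at 16.7 CPM, VAF3-3 at 15.6 CPM and VAF1-1 at 12.2 CPM. The SAF libraries reached 8.08 CPM at most and the remaining VAF libraries began at 7.12 CPM, so that these 2 ranges overlapped.

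Levels can be compared between genes per kilobase of exon (RPKM, here CPM divided by the length of the annotated exons in kilobases). On that scale the order in VAF3-1 was *UPK2* (454 RPKM), *UPK1A* (441), *UPK1B* (354), *UPK3A* (273), *CDH1* (109), *ELF3* (82.9), *GATA3* (18.7), *TP63* (8.73) and *GRHL2* (1.69). In VAF3-2 it was *UPK2* (181 RPKM), *UPK3A* (166), *UPK1A* (139), *UPK1B* (45.4), *ELF3* (42.3), *CDH1* (26.8), *GATA3* (8.57), *TP63* (1.57) and *GRHL2* (0.386). The 4 uroplakins led in both libraries. The annotated exons of *UPK1A* and *UPK1B* are of coding length only (774 and 780 bases), so reads beyond them were not counted and both the count and the length leave those parts out.

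Between partners in the plaque the RPKM ratio differed from library to library. *UPK1A* stood at 0.97 times *UPK2* in VAF3-1 (95% exact counting interval 0.94 to 1.0) and at 0.77 times *UPK2* in VAF3-2 (0.73 to 0.81). *UPK1B* stood at 1.3 times *UPK3A* in VAF3-1 (1.25 to 1.34) and at 0.27 times *UPK3A* in VAF3-2 (0.25 to 0.3). The intervals cover counting error alone, since each library is a single sample.

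The 9 genes did not differ between VAF3-1 and VAF3-2 by a common factor. All 9 were higher in VAF3-1, and the ratio of CPM in VAF3-1 to CPM in VAF3-2 ran from 1.64 for *UPK3A* (95% counting interval 1.58 to 1.71) to 7.8 for *UPK1B* (7.21 to 8.45). *ELF3*, *GATA3* and *UPK2* had ratios of 1.96 (1.85 to 2.08), 2.18 (1.99 to 2.38) and 2.51 (2.41 to 2.61). *UPK1A* followed at 3.17 (3.02 to 3.33), then *CDH1* at 4.09 (3.91 to 4.29), *GRHL2* at 4.37 (3.39 to 5.7) and the basal factor *TP63* at 5.55 (4.81 to 6.44). Over the 14271 genes with a mean of at least 1 CPM in these 2 libraries the median ratio was 1.06.

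**Figure D2:**
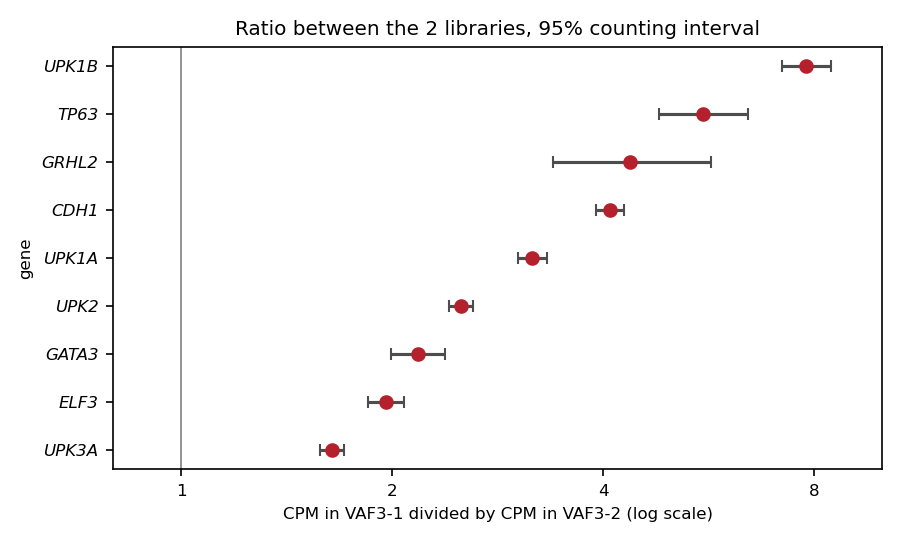
CPM in VAF3-1 divided by CPM in VAF3-2 (log scale) for each of the 9 genes, with 95% exact counting intervals as bars; the vertical line marks equal levels. UPK3A is lowest at 1.64 and UPK1B highest at 7.8, and the intervals of CDH1 and GRHL2 overlap.

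To see how many genes shared the pattern, each gene's lower CPM of VAF3-1 and VAF3-2 was divided by its highest CPM in the other 16 libraries, the latter set to no less than the CPM of 3 counts. This separation ratio was 600 for *UPK2*, 467 for *ELF3*, 366 for *UPK1A* and 188 for *UPK3A*, which put them at ranks 2, 3, 5 and 13 of 29884 genes. It was 36.1 for *TP63*, 15.6 for *CDH1* and 9.4 for both *GRHL2* and *UPK1B*, and 4.57 for *GATA3*, which its level in every library holds down. With a limit of 8, there were 185 such genes, 0.619% of the table, of which 8 are among the 9 urothelial genes. Just inside the limit were *KLC3* (8.23), *ABCB11* (8.09) and *GALNTL6* (8.01), and just outside LOC100623351 (7.93), *PLPP4* (7.9) and *S100A6* (7.88). Together the 185 genes held 16155.4 CPM in VAF3-1 and 7617.3 CPM in VAF3-2, against a median of 85.2 and at most 140.7 CPM in another library. Their median ratio of VAF3-1 to VAF3-2 was 2.35, with quartiles of 1.63 and 3.49, and 174 of the 185 were higher in VAF3-1.

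The gene with the largest separation ratio was not among the 9. *HSD17B2*, whose enzyme oxidises oestradiol and testosterone, was at 1140 CPM in VAF3-1 and 370 CPM in VAF3-2 and at most 0.51 CPM elsewhere, a ratio of 727. Among those next in order were *FXYD4*, a regulator of the sodium pump (136 and 74.9 CPM, ratio 400), *SNX31*, a sorting nexin that binds uroplakins (262 and 66.5 CPM, ratio 292), and *SPTSSB*, a small subunit of serine palmitoyltransferase (346 and 65.9 CPM, ratio 270). Further genes in this order were *C9H1orf116*, the prominin gene *PROM2*, the transporter family gene *SLC7A4*, the forkhead gene *FOXQ1*, the calpain gene *CAPN13*, *PIGR*, which carries immunoglobulins across epithelia, and *RAB25*, a small GTPase of apical recycling, with ratios from 235 down to 128. *PIGR* was the only gene named in this paragraph that was higher in VAF3-2, at 163 CPM against 92.6 CPM in VAF3-1.

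**Figure D3:**
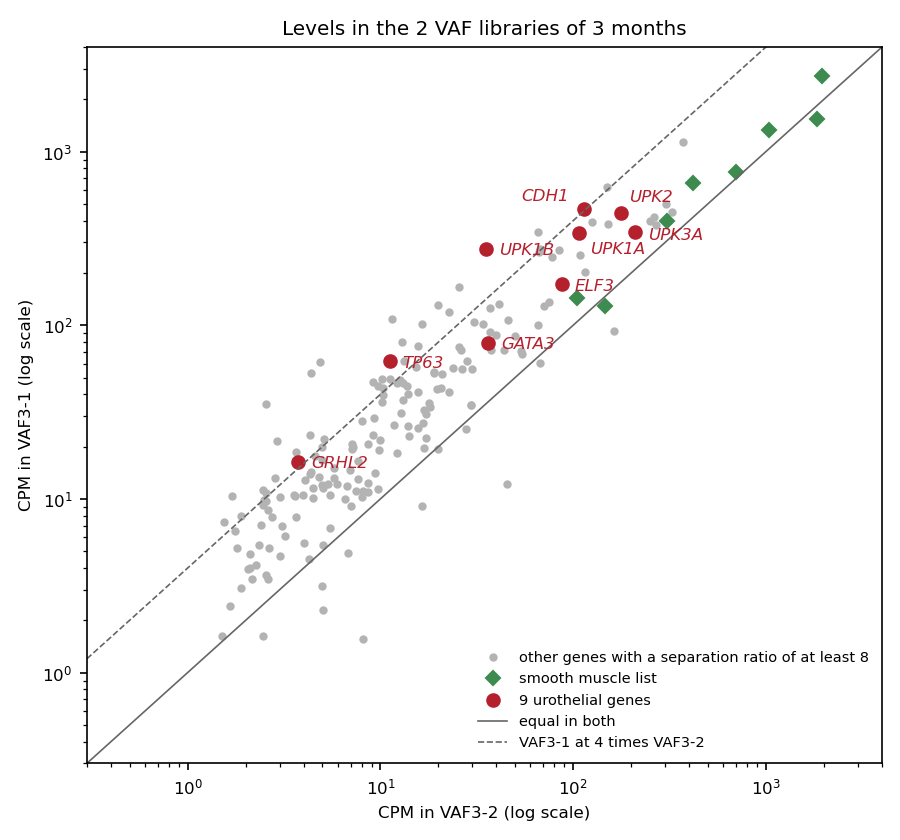
CPM in VAF3-1 against CPM in VAF3-2 (both log scale) for the 9 urothelial genes in red, the 177 other genes with a separation ratio of at least 8 in grey and 8 smooth muscle genes in green; the lines mark equal levels and 4 times more in VAF3-1. The red points lie 1.64 to 7.8 times above the line of equal levels, while the smooth muscle genes lie at 0.84 to 1.58 times.

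A list of 24 further urothelial genes, of which 21 are in the table, showed the pattern in part. In 14 of the 21 both VAF3-1 and VAF3-2 were above all other libraries, against 6.50% of all 29884 genes. A separation ratio of at least 8 was found for 8 of the 21, against 0.619% of all genes. The simple-epithelium keratins *KRT19* (499 and 304 CPM, at most 12.7 elsewhere), *KRT8* (418 and 264 CPM, at most 26.6) and *KRT7* (400 and 252 CPM, at most 6.01) were among them, and their highest other library was VAF6-1 each time. *PSCA*, a surface antigen of urothelium and prostate, was at 86.5 and 49.7 CPM, and *FOXA1*, a pioneer factor of urothelial differentiation, at 62.5 and 13.2 CPM. Genes that fat also expresses did not stand out: *PPARG* was at 206 and 120 CPM within or below a range of 140 to 319 CPM, and *AQP3* at 91.9 and 17.5 CPM beside 30.1 to 193 CPM elsewhere. *KRT20*, a keratin of umbrella cells, had 0 counts in all 18 libraries. *KRT5*, the basal keratin, was at 1.41 and 0.65 CPM, below its 2.58 CPM in SAF3-3, and had 0 counts in every other library.

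Genes of the basal side did not share a common ratio between VAF3-1 and VAF3-2. *COL17A1*, a hemidesmosome collagen, was at 61.5 CPM in VAF3-1 and 4.85 CPM in VAF3-2, a ratio of 12.7, and *SHH*, the ligand made by basal urothelial cells, at 6.86 and 0.75 CPM, a ratio of 9.14. Others of that side went the opposite way or were equal. The keratin *KRT15* was at 0.52 CPM in VAF3-1 and 6.10 CPM in VAF3-2. The integrin gene *ITGB4* was at 36.6 and 71.0 CPM and *ITGA6*, its partner in the hemidesmosome, at 57.3 and 52.4 CPM, the latter within the range of the other libraries. Of the 8 basal and hemidesmosome genes, 3 had both libraries above all others, beside 6.50% of all genes. *SHH* and *KRT15* were chosen for mention with its values known.

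Of 32 epithelial junction and identity genes, 24 had both VAF3-1 and VAF3-2 above the other 16 libraries, against 6.50% of all genes. Of the 32, 11 had a separation ratio of at least 8, against 0.619% of all genes. All 32 were higher in VAF3-1 than in VAF3-2, with ratios from 1.16 to 15.25 and a median of 2.53. The median over the 14271 genes with a mean of at least 1 CPM in these 2 libraries was 1.06. The adhesion molecule *EPCAM* was at 274 and 67.0 CPM against at most 0.56 CPM elsewhere. *SPINT1*, an inhibitor of membrane proteases, was at 102 and 34.1 CPM against at most 0.30 CPM. The tight junction gene *CLDN4* stood less apart, at 222 and 112 CPM, since VAF1-2 held 109 CPM.

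Other tissues were read from lists of their markers. Of 12 kidney genes 1 had both libraries above the rest, beside 6.50% of all genes. The nephron markers *UMOD*, *SLC34A1*, *AQP2* and *SLC12A1* had 0 counts in both. The highest kidney sum was in VAF3-3, at 31.1 CPM against 14.8 and 6.15 CPM, and came from *LRP2* (11.2 CPM), *SLC34A1* (7.51 CPM), *CUBN* (5.01 CPM) and *UMOD* (3.18 CPM), genes named here after their values were seen. In the mesothelium list, *WT1* was at 4.66 and 8.70 CPM below the 22.3 CPM of VAF6-3, and the sum of 505 and 314 CPM was almost all *KRT19*, which the urothelial list also holds. The keratinocyte sum of 76.4 and 39.6 CPM (at most 10.8 elsewhere) was mostly *IVL*, involucrin, at 62.3 and 28.2 CPM, while *KRT1* had 0 counts. Of the 6 gut genes 2 had both libraries above the rest, beside 6.50% of all genes. The gut sum was 24.2 and 20.3 CPM (at most 2.14 elsewhere). Most of that sum was *LGALS4*, at 22.4 and 17.3 CPM against at most 1.32 CPM elsewhere, while *CDX2* had 0 counts in all 18 libraries. The prostate sum was 11.8 and 9.003 CPM, within the 2.25 to 14.2 CPM of the other libraries, and *HOXB13* had 0 counts. The adrenal sum was 14.9 and 6.70 CPM, within the 0.584 to 33.9 CPM of the other libraries, but its genes differed. *CHGA* was at 11.5 CPM in VAF3-1 and 1.80 CPM in VAF3-2, against at most 3.57 CPM elsewhere. *DBH* had 30 counts in VAF3-1, 0 in VAF3-2 and 0 elsewhere. *STAR* was at 1.10 and 1.15 CPM, within the 0.27 to 29.8 CPM of the other libraries. Of the 8 adrenal genes 0 had both libraries above the rest, beside 6.50% of all genes. The T cell sum, which bears on *GATA3*, was 24.8 and 64.1 CPM, within the 11.6 to 67.4 CPM of the other libraries, with VAF3-3 highest.

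Smooth muscle and fat genes moved in the same 2 libraries. All 8 smooth muscle genes were above the other 16 libraries in both VAF3-1 and VAF3-2, against 6.50% of all genes. Their sums were 7707 and 6509 CPM against 316 to 1068 CPM. *DES*, the muscle intermediate filament desmin, was at 766 and 703 CPM against at most 35.7 CPM, and *ACTG2*, the actin of visceral smooth muscle, at 1333 and 1037 CPM against at most 31.5 CPM. The 8 smooth muscle genes were closer to equal in both libraries, with ratios of 0.84 to 1.58 and a median of 1.29 against 3.17 for the 9 genes. For 18 further urothelial genes with a mean of at least 1 CPM in these libraries the median was 2.09, with a range of 0.09 to 10.59. *KRT7* and *KRT8* at 1.59, and *KRT19* and *UPK3A* at 1.64, lay next to the highest smooth muscle ratio. Of 9 adipocyte genes, 6 were below all other libraries in both, against 4.76% of all genes, and the sum was 6260 and 5504 CPM against 11900 to 21200 CPM. *ADIPOQ*, the adipocyte hormone adiponectin, was at 605 and 417 CPM against 884 to 2920 CPM elsewhere. The labelled fat was thus detected in both libraries at a lower level, and the part of these other cell types in the urothelial values was not tested.

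**Figure D4:**
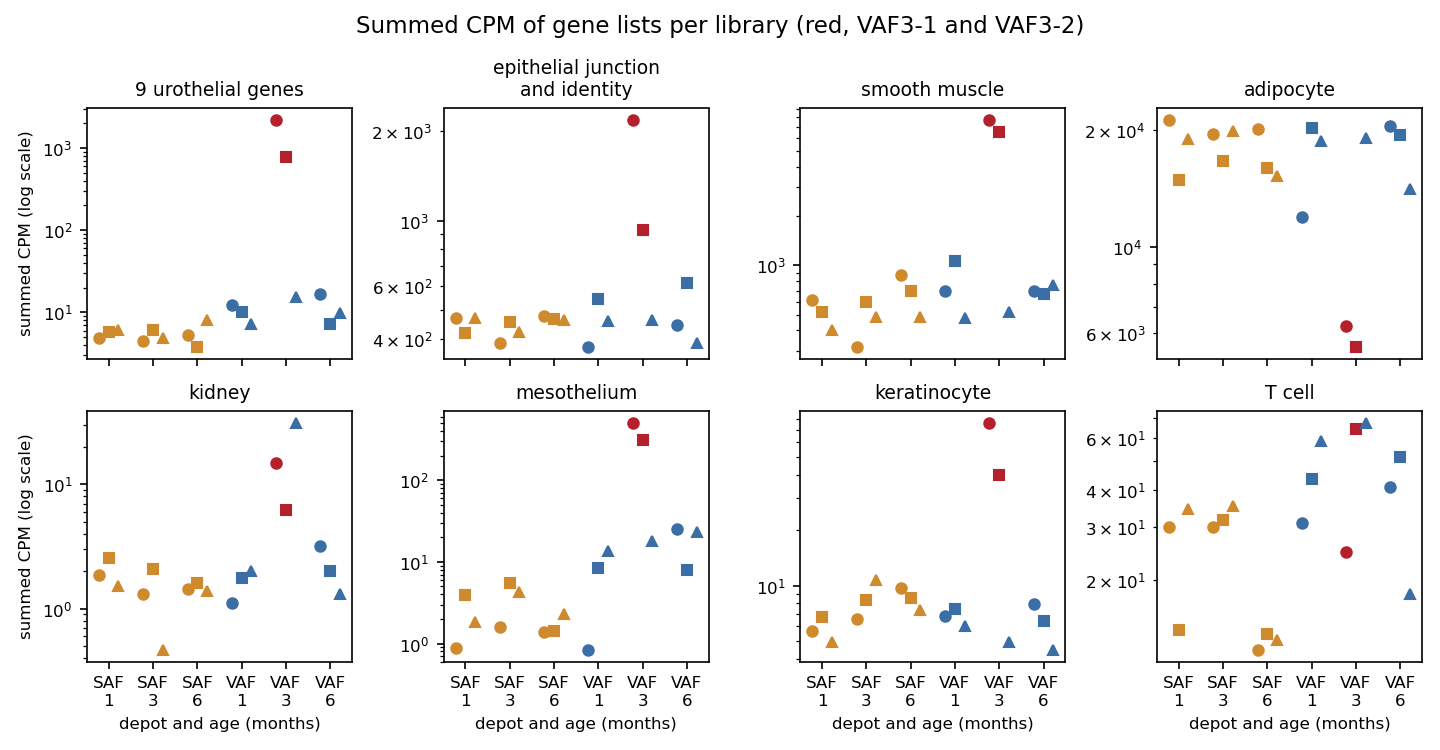
Summed CPM (log scale, a separate scale in each panel) of the 9 urothelial genes and of 7 marker lists in each library, by depot and age in months; circles, squares and triangles are libraries 1, 2 and 3, orange is SAF, blue is VAF, and red marks VAF3-1 and VAF3-2. The red symbols are the highest for urothelial, epithelial junction, smooth muscle, mesothelium and keratinocyte genes and the lowest for adipocyte genes, while VAF3-3 is highest for kidney and T cell genes.

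The comparisons of SAF with VAF at 1 and 6 months do not involve VAF3-1 and VAF3-2, so they could be tested for the 9 genes. Both depots came from the same pigs, but the labels do not say which libraries share a pig, and the tests are unpaired. Calls were made with edgeR's quasi-likelihood test, at a fold change above 1.5 in either direction and an adjusted p (Benjamini-Hochberg, over all genes tested) below 0.05. A negative log2 fold change (log2FC) means a higher level in VAF or at the older age. The SE beside an edgeR log2FC was derived from the test, as the absolute log2FC over the square root of the F statistic. At 1 month 3 of the 9 genes passed the filter on low counts and 0 were called, and 0% of all 15064 genes tested were called. In the same comparison 1702 genes had an unadjusted p under 0.05, and DESeq2 called 186 genes (1.18%), with 0 of the 9 among them.

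*GATA3* at 1 month was at 3.13, 2.96 and 3.23 CPM in SAF and at 5.01, 6.71 and 3.83 CPM in VAF. The 2 groups did not overlap. Its log2FC was -0.73 (SE 0.28) with an edgeR p of 0.0346 and an adjusted p of 0.43, which did not pass. *CDH1* was at 1.10, 1.48 and 1.41 CPM in SAF and at 6.07, 2.21 and 1.24 CPM in VAF, so that the groups overlapped through VAF1-3. Its log2FC was -1.23 (SE 0.59, edgeR adjusted p = 0.45), and -0.36 without VAF1-1. *UPK3A*, at 0.60, 1.12 and 0.89 CPM in SAF and 0.65, 0.61 and 0.62 CPM in VAF, had a log2FC of 0.49 (SE 0.39, edgeR adjusted p = 0.6).

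VAF6-3 was left out of the tests at 6 months, following the study. In this comparison 3 of the 9 genes passed the filter and 0 were called, beside 0% of 14962 genes. Here 1016 genes had an unadjusted p under 0.05 in edgeR, and DESeq2 called 183 genes (1.12%), again with 0 of the 9 among them. *KRT7*, of the further urothelial list, was among the 183 (log2FC -4.85, DESeq2 adjusted p = 0.0072). It was at 6.01 and 0.55 CPM in VAF6-1 and VAF6-2, against at most 0.16 CPM in SAF. *UPK1B*, at 3.77 and 0.37 CPM against at most 0.22 CPM, was not called (log2FC -4.19, DESeq2 adjusted p = 0.078). Neither gene passed edgeR's filter. *CDH1* was at 0.75, 0.17 and 0.27 CPM in SAF and at 7.30 and 0.55 CPM in VAF6-1 and VAF6-2, with VAF6-2 inside the range of SAF. Its log2FC was -3.32 (SE 1.1, edgeR adjusted p = 0.66), and -0.5 without VAF6-1. The difference rests on that library, whose age the labels leave in doubt. *GATA3* and *UPK3A* had log2FC of -0.15 (SE 0.47) and 0.25 (SE 0.93), with edgeR adjusted p of 0.93 and 0.94.

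At 3 months the contrast that chose the genes is given as a description. SAF and VAF differed in 6 of 14960 genes (0.0401%) by edgeR, with 0 of the 9 genes among them. Only *UPK1B*, *GATA3* and *CDH1* passed edgeR's filter, because the other 6 were at high counts in 2 libraries where the smallest group holds 3. Their log2FC were -9.23 (SE 1.85), -3.62 (SE 0.84) and -7.78 (SE 1.53). Without VAF3-3, where all 9 were at 6.75 CPM or less, 17.6% of 15571 genes were called (2740 genes), 10.9% as higher in VAF. The 9 urothelial genes and 12 of the 18 further urothelial genes that passed the filter were among the latter, which follows from how the 9 were chosen and is no support for them. Without VAF3-1 and VAF3-2, VAF at 3 months is the single library VAF3-3, which is then assumed to vary like the SAF libraries, and 17 genes (0.107%) were called with 0 of the 9 among them. The log2FC of *UPK1B*, *GATA3* and *CDH1* in that fit were -4.08, -0.69 and -2.88, and they too are smaller by the choice of the genes. DESeq2 on all 6 libraries called 956 genes, 5.78% of those it tested, and 7 of the 9, leaving out *GRHL2* and *TP63*.

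The VAF libraries of 3 months stood apart from the other ages by the same 2 libraries. The comparisons of VAF at 3 months with 1 and with 6 months share the VAF3 libraries with the contrast above, and again called 0 of the 9 genes by edgeR, beside 0% of 15275 and of 15596 genes tested. An unadjusted p under 0.05 was found for 1385 and 1683 genes. By DESeq2 622 genes (3.65%) were called against 1 month and 518 (3.18%) against 6 months, with 8 and 4 of the 9 among them. The log2FC of *UPK3A* was -8.24 (SE 2.02) from 1 to 3 months and 8.59 (SE 2.72) from 3 to 6 months. With VAF3-3 alone as VAF at 3 months, where *UPK3A* had 6 counts, the same values were 1.29 (SE 0.84) and -0.89 (SE 1.45), with edgeR adjusted p of 0.54 and 0.9, so that no direction can be read from them.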

How the data were processed

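RNA-seq libraries of SAF and VAF from 9 pigs were analysed as deposited. The authors used fastp for trimming and HISAT2 (2.0.4 in the submitters' processing notes) for alignment to Sscrofa11.1, then HTSeq-count, and the deposited values are raw counts per gene for 29884 genes. Annotation release and strand setting are not given in the sources used here. Columns were mapped by the library names, 0 columns were unused, and the conflicting labels of 4 VAF libraries were tried as an alternative.

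CPM used TMM factors over 18 libraries. The test of each pair of groups was the quasi-likelihood test of edgeR 4.0.16 (R 4.3.3, filterByExpr, no block). Alternatives were DESeq2 1.42.0, its size factors, total counts, no filter, a replicate block, a single fit of all groups, VAF6-3 included, other limits on the separation ratio and libraries left out; leaving out VAF3-1 with VAF3-2 was chosen after seeing the data. Replicates are separate pigs, and p-values cover the spread among 2 or 3 libraries. Scripts were tested on simulated data.

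Members and lists were chosen with earlier results of these data known. Besides the 9 members, the text names the 12 other genes with the largest separation ratio that have an assigned symbol, and up to 8 genes of each list by mean CPM in VAF3-1 and VAF3-2; *KRT5*, *KRT20*, *SHH*, *UMOD*, *SLC34A1*, *AQP2*, *SLC12A1*, *CUBN*, *LRP2*, *PSCA*, *FOXA1*, *KRT1*, *SPINT1* and others outside this rule were chosen after their values were seen. A few genes and a sequence that this rule covers are not reported here.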

Additional observations from a re-analysis of the deposited data

Results flagged for a closer look

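VAF6-3, which the study left out of its screening and which was left out of the tests here, had more than any SAF library of 6 months for 3 of the genes with over 3 counts in it. *GATA3* was at 7.938 CPM in VAF6-3, *UPK3A* at 1.074 CPM and *UPK1B* at 0.2301 CPM. The highest SAF library of 6 months had 6.48, 1.01 and 0.2209 CPM of them, and for *UPK1B* this is 6 counts against 4. *UPK2* was also higher, with 1 count against 0. These are the levels of a single library and were not tested.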

How the results depend on the processing

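The number of genes called moved with the tool and with single libraries. SAF against VAF at 1 month gave 0 genes by edgeR, 186 by DESeq2, 1 with no filter on low counts and 0 to 2 with a library left out. At 3 months the 6 genes became 956 by DESeq2, 455 with all groups in one fit, 30 under the other reading of the labels, 17 without VAF3-1 and VAF3-2 and 0 to 2740 with a library left out, the latter without VAF3-3. At 6 months the 0 genes became 183 by DESeq2, 3 with no filter, 2 with all groups in one fit, 1 with VAF6-3 included and 0 to 1 with a library left out. VAF at 1 against 3 months went from 0 to 622 by DESeq2, 278 with all groups in one fit, 1 without VAF3-1 and VAF3-2 and 0 to 1013 with a library left out, and VAF at 3 against 6 months from 0 to 518, 7, 149 and 0 to 1689 in that order. The further urothelial genes called at 3 months went from 0 to 8 by DESeq2, 7 with all groups in one fit and 0 to 12 with a library left out. A limit of 4 or 16 on the separation ratio gave 306 or 111 genes in place of 185. Apart from the left-out libraries, the cause of these moves was not tested.

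The replicate numbers did not meet the criterion for pairs, with correlations of same-numbered libraries from -0.198 to 0.357 at 1 month and from 0.014 to 0.507 at 3 months, where 2 and 3 of 6 libraries correlated best with their own number. At 6 months, with only 2 pairs, they were 0.257 and 0.368, and 4 of 4 libraries correlated best with their own number. These correlations are of deviations from the group mean, which mirror each other when a group holds 2 libraries. The 4 matches are therefore not independent and cannot decide whether the numbers mark a pig. With the replicate block, 766 genes were called at 6 months, 1 in VAF at 1 against 3 months, 2290 in VAF at 3 against 6 months, 9 at 3 months and 0 at 1 month, and 1 of the further urothelial genes at 3 months. The block also called *UPK1B* at 3 months (beside 0.0602% of all genes), *CDH1* at 6 months (log2FC -2.86, edgeR adjusted p = 0.014, beside 5.12%) and all 9 genes in VAF at 3 against 6 months (beside 14.7%). In the last fit VAF3-3 is alone in its block, since VAF6-3 was left out, so that the comparison rests on VAF3-1 and VAF3-2, by which the genes were chosen. SAF6-3 is alone in its block at 6 months for the same reason. The *CDH1* call and the 766 genes there rest on 2 pairs that the labels do not tie to a pig.

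Of the log2FC of the 9 genes under the alternatives, 200 kept their direction and their side of the threshold, 45 passed it and 8 changed sign. At 6 months *UPK3A* changed from 0.25 to -0.46 with the replicate block, -0.31 to 1.18 with a library left out, lowest without VAF6-2, -0.24 with VAF6-3 included and -0.2 under the other reading of the labels, and *GATA3* ran from -0.53 without SAF6-3 to 0.13 without SAF6-2 and 0.15 without VAF6-2. *UPK3A* changed to 1.29 and -0.89 in the comparisons of VAF by age without VAF3-1 and VAF3-2, where VAF at 3 months is VAF3-3 alone. Total counts as library sizes moved CPM by -14.4% to 16.7%, and DESeq2's size factors by -2.1% to 2.9%. Genes below 3 counts in a library, as several of the 9 were outside VAF3-1 and VAF3-2, could not be ranked at this depth.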
